A study of Mus musculus with 4 samples.

Results

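Keratins are the intermediate filament proteins of epithelial cells. A filament is built from paired chains, 1 acidic type I keratin with 1 basic type II keratin. In glands, Krt8 (type II) and Krt18 (type I) are the standard pair of luminal cells, with Krt19 and Krt7 beside them in many ducts, whereas Krt5 (type II) and Krt14 (type I) are the standard pair of basal cells, the layer that rests on the basement membrane. Krt15 and Krt17 are further type I keratins of basal cells of stratified epithelia, and Krt4 is a type II keratin of mucosal epithelia that in the mouse prostate marks proximal ducts.

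These 9 epithelial keratin genes, Krt4, Krt5, Krt7, Krt8, Krt14, Krt15, Krt17, Krt18 and Krt19, were chosen by symbol, with no measured value in the rule. All 9 were found among the 17896 genes, and each was listed in each of the 4 libraries. The ventral prostate of wild-type C57BL6j mice was profiled by droplet single-cell RNA sequencing, which counts unique molecular identifiers (UMIs, 1 per captured transcript end), in 2 sham mice and 2 mice of a group coded te2, all harvested 2 weeks after pellets were implanted. The labels do not spell out te2 and give no age, and no allele or transgene is named for either group. Each library held the paired ventral lobes of 1 animal, which a bacterial protease had broken up at low temperature, so n is 2 animals per group throughout. Cells with at least 500 UMIs and at most 20% mitochondrial UMIs were kept, which left 8091 of 11245.

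Each kept cell went to the first class whose threshold it met. Luminal cells held at least 10% of their UMIs in Sbp and Spink1, basal cells at least 0.2% in Krt5, Krt14 and Krt15, fibroblasts at least 0.3% in Col1a2, Col3a1 and Dcn, macrophages at least 0.3% in C1qa, C1qb and C1qc, and proximal cells at least 0.1% in Wfdc2, Cxcl17 and Cyp2f2. The sham libraries gave 1057 and 1292 luminal, 44 and 160 basal and 55 and 184 proximal cells. The te2 libraries gave 392 and 485 luminal, 591 and 573 basal and 683 and 421 proximal cells. Between 0.2% and 0.3% lay 16 and 38 sham and 68 and 36 te2 basal cells, and 28 and 46 sham and 141 and 92 te2 cells lay just below, between 0.1% and 0.2%. Because Krt5, Krt14 and Krt15 define the basal class and are capped in every class after it, their levels there are given as a description only. Luminal cells are set aside before the basal threshold, so all 9 genes are free in them.

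The te2 libraries were deeper, with total UMIs of 12259610 and 13134017 against 3999690 and 5513275, and median depths in luminal cells were 8265.5 and 10359 UMIs against 1551 and 2455. Summed basal markers (Trp63, Dsc3, Dsg3, Lgals7, Col17a1, Aqp3, Trim29 and Lamb3), which the rule did not use, reached 1517 to 2048 CPM (UMIs scaled to a fixed total of 1000000) in basal cells and at most 196 in the other classes, although Dsg3 was at 0 in basal cells of all 4 libraries. The secretory genes Sbp and Spink1 were found in cells that should lack them. In fibroblasts they took 31553 and 37199 CPM in sham and 3986 and 5069 in te2, and in basal cells 34999.8 and 34201 against 2381 and 5479. Each pair of libraries shared 1 to 5 cell barcodes.

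The change of Krt8 and Krt18, which lie near each other on chromosome 15, is set beside the largest change, that of Krt7 on the same chromosome. RefSeq promoter windows (250 bases before to 50 after the start, build GRCm38.p6) were held for 5 of the 9 genes, Krt5, Krt7, Krt8, Krt14 and Krt18. The 3 windows follow, 5′ to 3′ on the gene's own strand, for Krt7 (chr15:101412153-101412452, plus strand), Krt8 (chr15:102004293-102004592, minus strand) and Krt18 (chr15:102027966-102028265, plus strand). Capitals mark matches on either strand to TATAAA (the core promoter box, which reads TTTATA on the other strand), GGGCGG (a GC box, which reads CCGCCC on the other strand) or AGAACA (an androgen receptor half-site, which reads TGTTCT on the other strand).
Krt7: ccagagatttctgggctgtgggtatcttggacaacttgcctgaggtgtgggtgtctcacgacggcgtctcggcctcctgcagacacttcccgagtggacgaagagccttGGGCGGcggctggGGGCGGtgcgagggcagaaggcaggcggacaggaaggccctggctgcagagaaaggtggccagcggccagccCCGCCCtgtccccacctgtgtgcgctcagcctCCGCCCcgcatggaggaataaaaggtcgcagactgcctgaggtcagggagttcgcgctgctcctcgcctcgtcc
Krt8: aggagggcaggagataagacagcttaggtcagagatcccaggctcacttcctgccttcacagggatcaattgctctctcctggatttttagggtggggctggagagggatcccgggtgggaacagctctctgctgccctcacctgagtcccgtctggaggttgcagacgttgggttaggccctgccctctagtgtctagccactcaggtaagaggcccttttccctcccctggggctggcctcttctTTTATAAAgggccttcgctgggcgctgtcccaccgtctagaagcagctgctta
Krt18: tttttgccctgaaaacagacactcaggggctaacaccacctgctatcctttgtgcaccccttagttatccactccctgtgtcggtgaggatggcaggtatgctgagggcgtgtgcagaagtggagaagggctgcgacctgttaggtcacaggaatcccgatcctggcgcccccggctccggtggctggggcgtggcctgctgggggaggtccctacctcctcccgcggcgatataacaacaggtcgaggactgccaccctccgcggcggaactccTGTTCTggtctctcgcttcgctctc
The Krt7 window held 4 GC boxes, 2 on each strand. Krt8 held TATAAA on its own strand, overlapping a match on the other. Krt18 held 1 androgen receptor half-site on the opposite strand, and the Krt5 and Krt14 windows held none of the 3 motifs. Of 32851 promoter windows of 300 bases, 13.6% held TATAAA, 35.7% GGGCGG and 19.0% AGAACA, so each motif is common. The Krt8 and Krt18 windows are 23373 bp apart and point away from each other. No binding was measured here.

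Across classes, the 9 genes fell into 3 patterns. Levels set between classes are CPM of the class's total UMIs. Krt5, Krt14, Krt15 and Krt17 were highest in basal cells in both groups, and for the first 3 the class rule fixes that order. Krt17, which is not in the rule, reached 22.1 and 87.3 CPM in sham basal cells and 51.1 and 80.3 in te2 basal cells, against at most 9.05 in any other class of any library. Krt8, Krt18 and Krt19 were found in luminal, proximal and basal cells. Sham Krt19 levels were 44.2 and 87.3 CPM in basal cells, below the 151 and 215 of luminal and the 154 and 317 of proximal cells. Sham Krt18 levels were 442 and 420 CPM in basal cells, below the 633 and 743 of luminal and the 1041 and 963 of proximal cells. In sham the Krt8 levels of proximal and basal cells did not overlap, with 1249 and 1099 CPM against 972 and 769, whereas basal and luminal levels did (648 and 795 in luminal cells). Krt4 and Krt7 were highest in proximal cells. Krt4 stood there at 326 and 349 CPM in sham and 171 and 143 in te2, above the 0 and 32.7 of sham basal cells and the 89.8 and 60.9 of te2 basal cells. Sham Krt7 levels were 326 and 341 CPM in proximal cells, 44.2 and 202 in basal cells and 5.05 and 3.92 in luminal cells, which in sham had the lowest mean of the 5 classes.

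**Figure D1:**
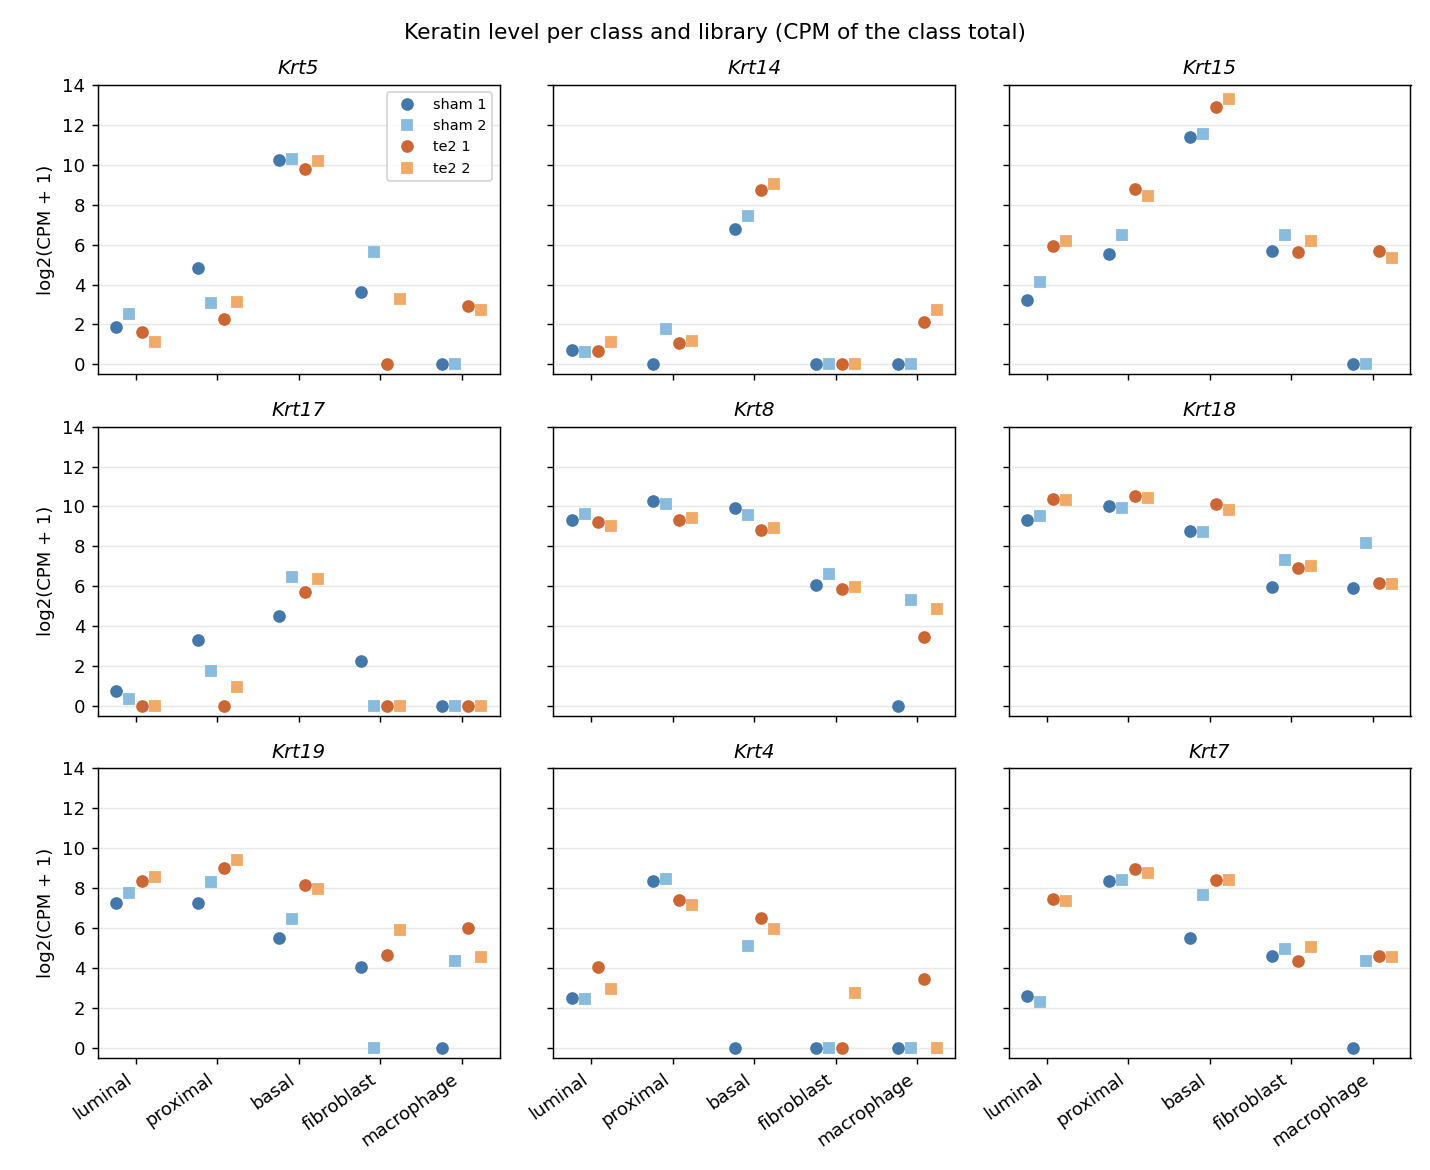
Level of each keratin in 5 cell classes, as log2(CPM + 1) of the class total, with 1 point per library (n = 2 animals per group). Krt7 in luminal cells separates sham (5.05 and 3.92 CPM) from te2 (172 and 163 CPM), and in the epithelial classes Krt18 lies higher and Krt8 lower in te2 than in sham.

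The share of a gene's UMIs found in each class differed between the groups. Luminal cells held 86.8% and 76.9% of all Krt8 UMIs in sham but 29.6% and 37.1% in te2, where proximal cells held 41.6% and 29.9%. Basal cells held 97.7% and 97.1% of Krt5 UMIs in te2 and 73.0% and 84.9% in sham. Because a level in all kept cells mixes such shifts with changes inside a class, fewer cells of a type and less RNA per cell cannot be told apart there.

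Luminal cells, the secretory epithelium, were compared first, with raw UMIs summed per library and tested by edgeR's quasi-likelihood test with Benjamini-Hochberg adjustment over all 10976 genes tested (FDR 0.05). Levels set between te2 and sham are CPM scaled by TMM (a factor per library that aligns the bulk of genes), and errors beside a log2 change are standard errors (SE). Krt7, Krt15, Krt18, Krt19 and Krt4 rose and Krt8 fell. These are all 6 keratins with enough counts to be tested, in a comparison where 32.1% of all tested genes were called, 18% higher and 14.1% lower. Krt5, Krt14 and Krt17 had 0 to 18 UMIs per library in luminal cells and were not tested.

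Krt7, a type II keratin of simple and ductal epithelia, stood at 5.21 and 3.95 CPM in sham and 165 and 163 CPM in te2. Both te2 levels were far above both sham levels, with a log2 change of 5.18 ± 0.19 (SE, n = 2 per group, edgeR adjusted p = 9.2e-10). Behind this were 15 Krt7 UMIs in each sham library, and te2 gave 571 and 807. At an equal depth of 1000 UMIs per cell, 0.562% and 0.296% of sham luminal cells and 15.7% and 14.4% of te2 luminal cells had a Krt7 UMI. Fibroblasts, which should lack Krt7, gave 1.87% and 5.14% in sham and 1.93% and 2.55% in te2 at that depth, so the sham luminal share is at background and the te2 share lies above it. Without thinning, 13 of 1057 sham 1 cells (1.23%) and 241 of 392 te2 1 cells (61.5%, exact 95% binomial interval 56.5% to 66.3%, counting error only) had 1. The Krt7 UMIs were spread over many te2 cells, since the 10% of luminal cells with most Krt7 held 38.2% and 39.3% of them.

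Krt18, the type I partner of Krt8, was at 653 and 748 CPM in sham and 1278 and 1299 CPM in te2 luminal cells. The groups did not overlap, and the log2 change was 0.88 ± 0.13 (SE, edgeR adjusted p = 0.000237). Krt8 was at 669 and 801 CPM in sham and 575 and 525 CPM in te2, a log2 change of -0.42 ± 0.13 (SE, edgeR adjusted p = 0.0285). The Krt8 call did not hold without TMM factors (-0.36, edgeR adjusted p = 0.0735), without sham 2 (-0.28, edgeR adjusted p = 0.164) or without te2 2 (-0.36, edgeR adjusted p = 0.153). Krt19, a small type I keratin of simple epithelia, rose from 156 and 217 CPM to 319 and 377 CPM, a log2 change of 0.89 ± 0.16 (SE, edgeR adjusted p = 0.000697). As in Krt18, no te2 level of Krt19 fell within the sham range.

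Krt15 and Krt4 were low in luminal cells. Krt15 stood at 8.68 and 16.6 CPM in sham and 57.3 and 70.9 CPM in te2, a log2 change of 2.30 ± 0.22 (SE, edgeR adjusted p = 6.4e-06) that was 2.90 without sham 2. At 1000 UMIs per cell, 0.690% and 0.952% of sham and 4.58% and 4.03% of te2 luminal cells had a Krt15 UMI. Fibroblasts, which should lack Krt15, gave 2.97% and 3.99% in sham and 4.85% and 5.80% in te2, and te2 macrophages 4.29% and 5.04%. Without thinning, 0 of 56 and 0 of 57 sham macrophages had a Krt15 UMI, which allows up to 5.36% and 5.26%. The luminal shares were thus below those of fibroblasts in both groups and are not read as expression. Fibroblasts were taken after the basal threshold, and basal cells with Krt5 or Krt14 held 1632 to 3016 CPM of the fibroblast rule genes. Whether cells below the basal threshold add Krt15 to fibroblasts was not tested. The comparison thus does not show that luminal Krt15 is background. The part of background in the Krt15 rise was not tested. Some cells held many, with up to 26 and 133 Krt15 UMIs in 1 luminal cell of each te2 library, and the 10% of luminal cells with most Krt15 held 89.9% and 89.5% of its UMIs. Krt4 stood at 4.86 and 4.48 CPM in sham and 15.04 and 6.67 CPM in te2, a log2 change of 1.16 ± 0.41 (SE, edgeR adjusted p = 0.0414) that was 0.53 without te2 1 (edgeR adjusted p = 0.464) and not called without sham 2 (edgeR adjusted p = 0.0781) or by DESeq2 (DESeq2 adjusted p = 0.146). Krt4 counts were 14 to 52 UMIs per library.

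Markers of proximal cells moved with these genes in the luminal class. The sum of Psca, Ly6d, Clu and Ppp1r1b was 135 and 76.3 CPM in sham, with 3 of 4 detected and Psca at 0 in both libraries, and 1616 and 1713 CPM in te2, with 4 of 4 detected. Their part in the keratin changes was not tested.

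**Figure D2:**
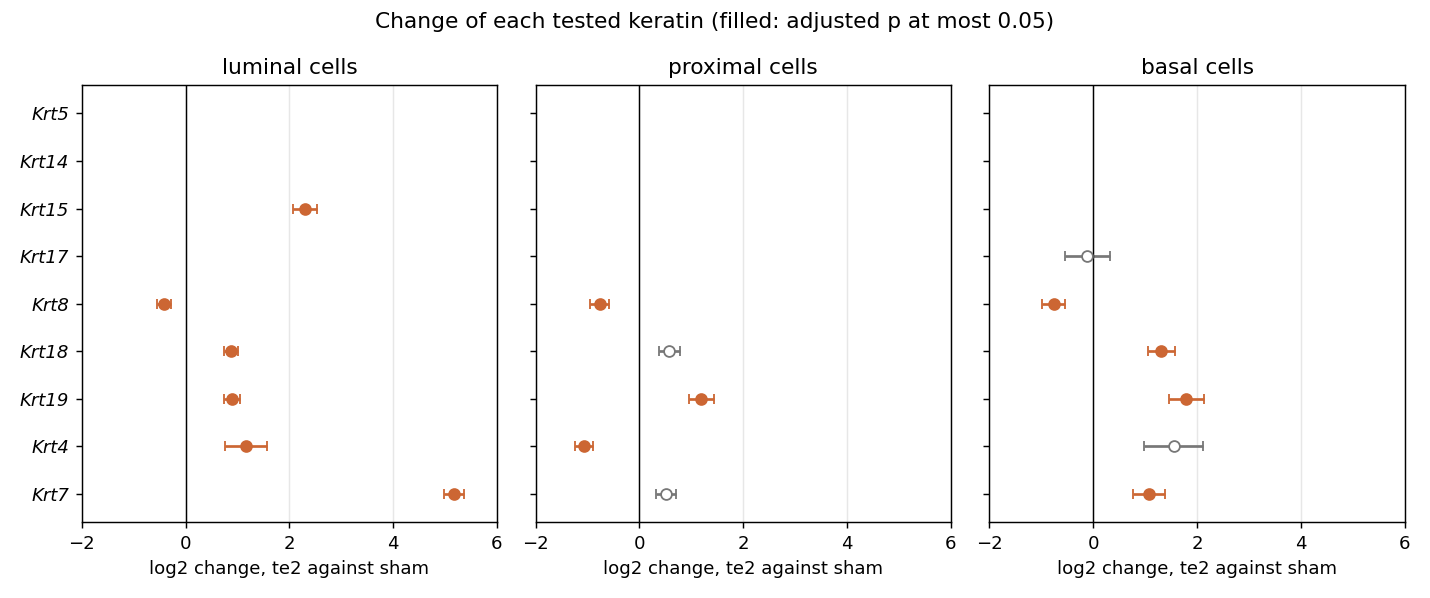
Log2 change of each tested keratin, te2 against sham, with its SE, in 3 cell classes (n = 2 animals per group); filled points have an adjusted p of at most 0.05, and genes with no point were not tested or take part in the class rule. Krt7 in luminal cells lies at 5.18, and Krt8 lies below 0 in each class.

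Proximal cells, a class named after the ducts near the urethra and set here by its rule genes alone, were compared next. Of the 5 keratins outside the basal rule with enough counts, Krt19 rose, Krt4 and Krt8 fell, and Krt18 and Krt7 did not pass, where 9.93% of the 10383 tested genes were called, 5.12% higher and 4.81% lower. Krt17 had 0 to 3 UMIs per library and was not tested. Krt4 was at 297 and 362 CPM in sham and 179 and 145 CPM in te2, a log2 change of -1.07 ± 0.18 (SE, edgeR adjusted p = 0.000619). Both te2 levels of Krt4 lay below both sham levels. Krt8 stood at 1139 and 1142 CPM in sham and 658 and 683 CPM in te2, a log2 change of -0.77 ± 0.18 (SE, edgeR adjusted p = 0.0117), again with no overlap. Krt19 was at 140 and 329 CPM in sham and 545 and 680 CPM in te2, a log2 change of 1.19 ± 0.24 (SE, edgeR adjusted p = 0.00331). The 2 sham levels of Krt19 differed more from each other than the te2 levels did, and its log2 change was 0.92 to 2.18 with a library left out, with the highest value without sham 2. The Krt4 call was lost without sham 2 (-0.82, edgeR adjusted p = 0.0538), and the Krt8 call without te2 2 (-0.81, edgeR adjusted p = 0.135).

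Krt18 levels in proximal cells were 949.5 and 1000.3 CPM in sham and 1540.5 and 1384 CPM in te2, with a log2 change of 0.58 ± 0.21 (SE, edgeR adjusted p = 0.0875). Krt7 levels were 297 and 354 CPM in sham and 516 and 440 CPM in te2, with a log2 change of 0.51 ± 0.19 (SE, edgeR adjusted p = 0.0923). With no filter on low counts both passed (edgeR adjusted p = 0.0137 and 0.0300). Without te2 1 none of the 5 tested keratins outside the rule passed in proximal cells. As a description, Krt15, capped by the class rule, stood at 41.3 and 91.2 CPM in sham and 464 and 346 CPM in te2 proximal cells. At 1000 UMIs per cell, 3.53% and 6.90% of sham and 27.7% and 23.1% of te2 proximal cells had a Krt15 UMI, and the te2 shares lay above those of fibroblasts.

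The make-up of the proximal class differed between the groups. Its rule genes Wfdc2, Cxcl17 and Cyp2f2 were also called higher in te2 luminal cells (3 of 3, beside 18% of all tested genes called higher). In basal cells Wfdc2 and Cxcl17 were called higher (2 of 3, beside 4.94%). The part of this in which te2 cells met the proximal threshold was not tested. Summed urothelial markers (Upk1a, Upk1b, Upk2 and Upk3a) took 715 and 670 CPM of sham and 85.8 and 93.4 CPM of te2 proximal cells, with 2 of 4 detected in sham, 3 of 4 in te2, and Upk3a at 0 in all 4 libraries. The luminal markers Msmb, Hoxb13, Trpv6 and Dpp4 summed to 479.9 and 731 CPM in sham, where Msmb and Trpv6 were at 0 in sham 1, and to 1185 and 1409 CPM in te2. Their part in the fall of Krt4 and Krt8 was not tested.

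Basal cells, which lie under the luminal layer, gave 249 and 1101 UMIs of the 9 keratins in sham, far below the 17355 and 23875 of te2, so sham values rest on few counts. All 6 keratins outside the rule were tested. Krt19, Krt18 and Krt7 rose, Krt8 fell, and Krt4 and Krt17 did not pass, where 7.71% of the 9132 tested genes were called, 4.94% higher and 2.77% lower. Krt18 was at 384 and 446 CPM in sham and 1182 and 938 CPM in te2, a log2 change of 1.31 ± 0.26 (SE, edgeR adjusted p = 0.000663). Krt8 stood at 845 and 816 CPM in sham and 474 and 498 CPM in te2, a log2 change of -0.77 ± 0.22 (SE, edgeR adjusted p = 0.0233). Both pairs of groups were apart, in opposite directions. In sham fibroblasts, where the secretory genes were near their level in sham basal cells, Krt8 took 65.4 and 98.2 CPM on the scale of class totals. Sham basal cells held 972 and 769 CPM of Krt8 on that scale, and te2 fibroblasts, with fewer secretory UMIs, 57.3 and 61.1 CPM. The part of background in the fall of Krt8 in basal cells was not tested. The Krt8 call of basal cells was lost without each library in turn (log2 change -0.86 to -0.71, edgeR adjusted p = 0.0628 to 0.244).

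Krt19 in basal cells was at 38.4 and 92.6 CPM in sham and 295 and 257 CPM in te2, a log2 change of 1.80 ± 0.34 (SE, edgeR adjusted p = 0.000373). Krt7 was at 38.4 and 214 CPM in sham and 359.5 and 346 CPM in te2, a log2 change of 1.07 ± 0.30 (SE, edgeR adjusted p = 0.0177), and sham 1 rested on 2 UMIs of each gene. The Krt7 call was lost with DESeq2 (DESeq2 adjusted p = 0.296). Without sham 2 the log2 changes were 2.92 for Krt19 and 3.28 for Krt7. Without sham 1 they were 1.61 and 0.76, and the Krt7 call was lost then (edgeR adjusted p = 0.124), as it was without te2 1 or te2 2. Krt4 was at 0 and 34.7 CPM in sham and 93.9 and 63.2 CPM in te2, a log2 change of 1.55 ± 0.57 (SE, edgeR adjusted p = 0.0825) that was 1.20 to 9.38 with a library left out. The highest value, without sham 2, is set against a sham library with 0 Krt4 UMIs and is no bound. Krt17 had a log2 change of -0.12 ± 0.43 (SE, edgeR adjusted p = 0.918). When basal cells were taken by Krt5 and Krt14 alone, a rule set after seeing that Krt15 was high outside the basal class, the Krt19 change was 0.82 (edgeR adjusted p = 0.411). Without te2 1, 1 of the 4 calls was left.

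Basal cells with Krt15 but no Krt5 or Krt14 UMI made up 36.4% and 23.8% of the class in sham and 23.4% and 15.5% in te2, without thinning. The median of Krt5, Krt14 and Krt15 UMIs per basal cell was 3 and 4 in sham and 20 and 31 in te2. Only 1 or 2 such UMIs were found in 27.3% and 13.1% of sham and 3.05% and 1.57% of te2 basal cells. A sham cell can thus lack Krt5 and Krt14 UMIs through low counts, and the groups' shares are not alike. In te2 the cells with Krt15 alone carried 366 and 403 CPM of summed basal markers, against 2931 and 2395 CPM in the basal cells with Krt5 or Krt14. They also carried 3365 and 3207 CPM of the proximal genes Wfdc2, Cxcl17 and Cyp2f2, against 790 and 712 CPM. Their Krt19 took 653 and 643 CPM and their Krt4 221.5 and 226 CPM, against 86.7 and 139 CPM and 20.7 and 15.7 CPM in the cells with Krt5 or Krt14. In te2 the cells with Krt15 alone thus held fewer basal markers, whereas in sham the summed markers were 1294 and 1155 CPM without Krt5 or Krt14 and 1743 and 1618 CPM with them. The part of the low sham counts in this contrast was not tested.

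As a description of the genes in the rule, Krt15 stood at 2324 and 3159 CPM in sham and 7882 and 10571 CPM in te2 basal cells. Krt14 stood at 96.0 and 185 CPM in sham and 451 and 553 CPM in te2, and Krt5 at 1037 and 1331 CPM in sham and 936 and 1201 CPM in te2. Both te2 levels of Krt15 and Krt14 lay above both sham levels, whereas those of Krt5 overlapped. Among basal cells with Krt5 or Krt14, Krt15 took 2145 and 2671 CPM in sham and 9373 and 11718 CPM in te2. There were 2.24 and 2.37 Krt15 UMIs per Krt5 UMI in sham basal cells and 8.42 and 8.80 in te2. The share of basal cells with both Krt5 and Krt14 at 1000 UMIs was 7.16% and 7.06% in sham and 22.7% and 25.1% in te2.

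Fibroblasts and macrophages served as classes that should hold little keratin. Krt8 and Krt18 were the tested free keratins in fibroblasts, and edgeR called neither at FDR 0.05 or at an unadjusted p under 0.05 (log2 changes -0.43 ± 0.38 and 0.36 ± 0.39, SE, edgeR adjusted p = 0.591 and 0.678), nor did DESeq2, where 2.07% of the 4450 tested genes were called. No keratin had enough counts to be tested in macrophages, where 3.68% of tested genes were called. All 9 together took 231 and 422 CPM in sham and 268 and 370 CPM in te2 fibroblasts, against 1455 and 1783 CPM and 2506 and 2444 CPM in luminal cells.

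The balance of the Krt18 and Krt8 pair differed between te2 and sham in the same direction in each epithelial class. A ratio of UMIs is not a ratio of transcripts or proteins, since capture can differ between genes, so only its difference between libraries is described. Luminal cells held 0.977 and 0.934 Krt18 UMIs per Krt8 UMI in sham and 2.22 and 2.48 in te2. Proximal cells held 0.833 and 0.876 in sham and 2.34 and 2.03 in te2, and basal cells 0.455 and 0.546 in sham and 2.49 and 1.88 in te2. Cells in no class held 1.22 and 1.24 in sham and 1.90 and 1.95 in te2. Fibroblasts, on 10 to 21 Krt8 UMIs per library, held 0.941 and 1.60 in sham and 2.08 and 2.14 in te2. In each of these classes both te2 ratios lay above both sham ratios, though 2 libraries against 2 cannot give an exact permutation p below 0.333. Macrophages, on 0 to 5 Krt8 UMIs per library, did not follow, with 7.5 in sham 2, no ratio in sham 1, and 7.0 and 2.4 in te2. Summed type I UMIs per type II UMI stood at 1.20 and 1.21 in sham and 2.18 and 2.51 in te2 luminal cells, and at 0.648 and 0.764 in sham and 1.88 and 1.89 in te2 proximal cells. In basal cells, where Krt15 is in the rule, they stood at 1.49 and 1.66 in sham and 5.29 and 5.88 in te2.

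**Figure D3:**
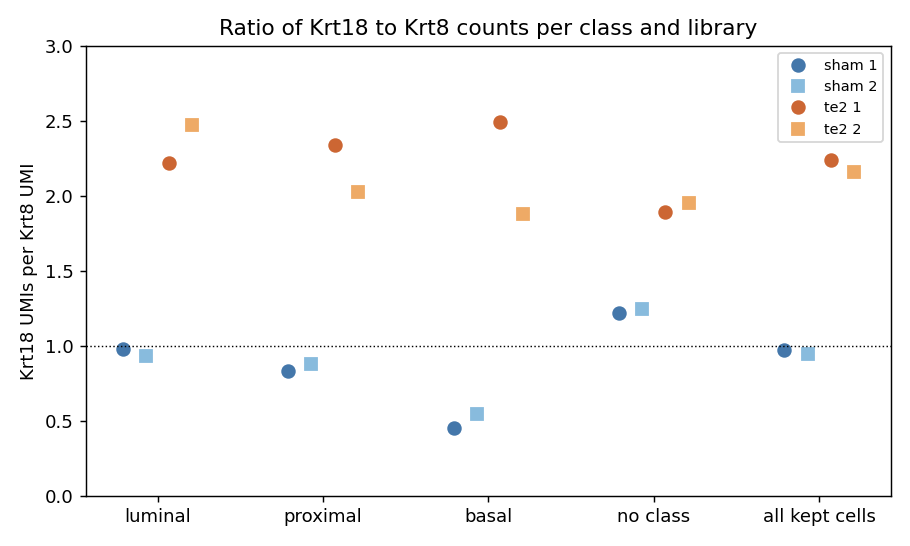
Krt18 UMIs per Krt8 UMI in each class, with 1 point per library (n = 2 animals per group) and a dotted line at 1. Sham luminal cells lie at 0.977 and 0.934 and te2 luminal cells at 2.22 and 2.48, and te2 lies above sham in each class drawn.

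The te2 change of a keratin was then compared between classes in 1 model per pair of classes with the library as a block. Of the keratins outside the basal rule, 1 of 6 tested differed between basal and luminal cells (1.51% of all tested genes did), 2 of 5 between proximal and luminal cells (6.46%) and 2 of 6 between proximal and basal cells (2.03%). The change of Krt7 was smaller in basal than in luminal cells by a log2 difference of -3.93 ± 0.43 (SE, edgeR adjusted p = 6.6e-17), and smaller in proximal than in luminal cells by -4.63 ± 0.27 (SE, edgeR adjusted p = 7.7e-63). Both differences are set against a sham luminal level of 15 UMIs per library, which was at background, so their size is uncertain. Mean Krt7 levels in sham and te2 were 4.58 and 164 CPM in luminal, 126 and 353 in basal and 326 and 478 in proximal cells. Without sham 2, the difference between basal and luminal cells was -1.58 (edgeR adjusted p = 0.664). Krt4 had 14 to 52 UMIs per library in luminal cells. Its change in proximal cells, a fall, differed from that in luminal cells by -2.17 ± 0.32 (SE, edgeR adjusted p = 2.4e-09) and from that in basal cells by -2.73 ± 0.51 (SE, edgeR adjusted p = 2.1e-05). The latter was -10.8 to -2.32 with a library left out, with the first value without sham 2, where the sham basal count of Krt4 is 0, and without te2 2 it was not called (edgeR adjusted p = 0.671). The change of Krt18 differed between proximal and basal cells by -0.83 ± 0.25 (SE, edgeR adjusted p = 0.0475), a call lost without any 1 library (edgeR adjusted p = 0.0917 to 0.857). For Krt8 the differences between the 3 classes were -0.28 to -0.10 and none was called (edgeR adjusted p = 0.350 to 0.924), which does not show that its change was equal. Without TMM factors the Krt8 difference between proximal and luminal cells was called (-0.43, edgeR adjusted p = 0.0260).

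Over all kept cells, Krt14, Krt15, Krt7, Krt5, Krt19 and Krt18 were higher in te2, 6 of 9, where 20.7% of the 14029 tested genes were called, 12% higher and 8.62% lower. The log2 changes of the basal genes were 3.43 ± 0.40 for Krt14, 3.59 ± 0.49 for Krt15 and 1.63 ± 0.42 for Krt5 (SE, edgeR adjusted p = 0.00541, 0.00784 and 0.0400). The number of basal cells was 44 and 160 in sham and 591 and 573 in te2. Krt8 had a log2 change of -0.57 ± 0.18 (SE, edgeR adjusted p = 0.0678). Without te2 2, 3 of these 6 calls were left, and without sham 2 the changes of Krt14, Krt15 and Krt5 were 4.70, 4.61 and 2.60.

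**Figure D4:**
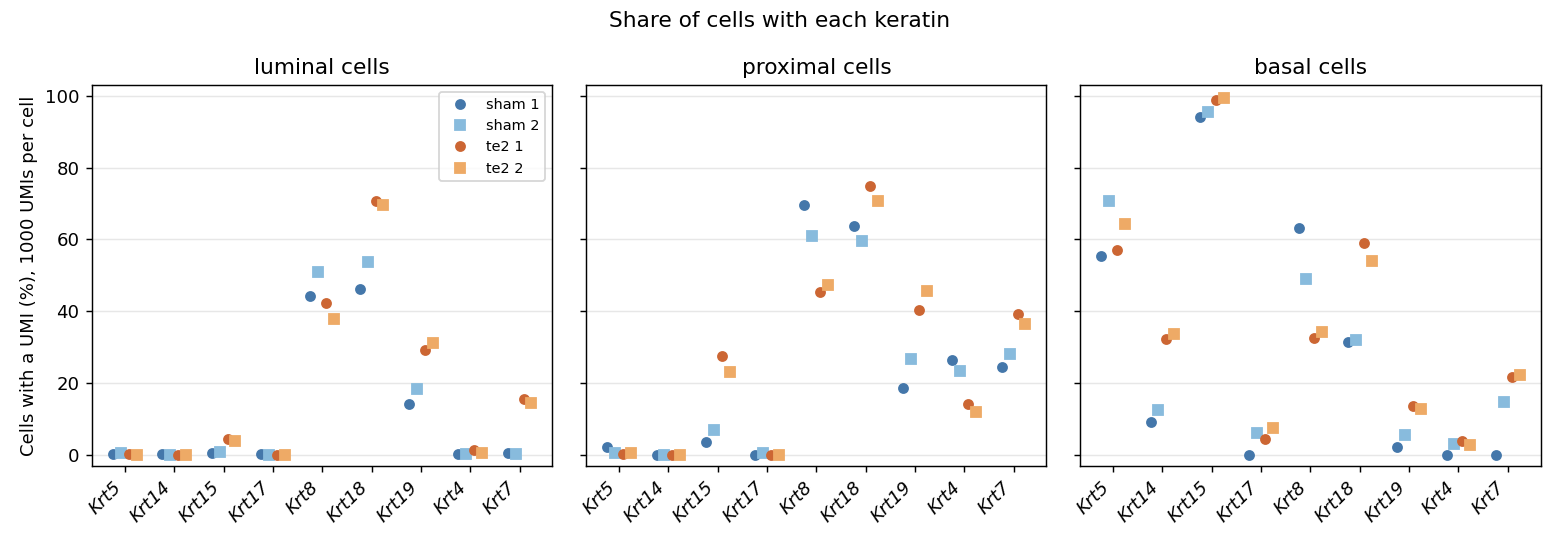
Share of cells with at least 1 UMI of each keratin at 1000 UMIs per cell, in 3 classes, with 1 point per library (n = 2 animals per group). Krt7 in luminal cells lies at 0.562% and 0.296% in sham and 15.7% and 14.4% in te2, and Krt15 in proximal cells at 3.53% and 6.90% and 27.7% and 23.1%.

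Co-detection was counted as cells with a UMI of the basal set (Krt5, Krt14, Krt15 or Krt17) and of the luminal set (Krt8, Krt18 or Krt19), with each cell thinned to 1000 UMIs and shallower cells left out. This left 19 and 90 sham and 544 and 526 te2 basal cells, 651 and 1012 sham and 370 and 460 te2 luminal cells, and 38 and 139 sham and 625 and 393 te2 proximal cells. In basal cells 77.3% and 66.9% of sham and 73.8% and 71.8% of te2 cells held both sets, and the groups overlapped (means 72.1% ± 7.36 and 72.8% ± 1.45, SD, n = 2). The class rule nearly fixes the basal set there, which 99.0% to 99.5% of basal cells held, so this share restates the luminal set and is given with no test. Without thinning the basal shares were 65.9% and 73.1% in sham and 89.2% and 90.9% in te2. The luminal set itself was found in 9.38% and 20.2% of sham and 10.4% and 13.9% of te2 fibroblasts at 1000 UMIs, against 77.9% and 67.2% and 74.4% and 72.2% of basal cells.

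In proximal cells 3.32% and 7.27% of sham and 25.6% and 21.3% of te2 cells held both sets (means 5.29% ± 2.79 and 23.5% ± 3.02, SD, n = 2). The class rule caps Krt5, Krt14 and Krt15 in proximal cells, so these shares are a description and are given with no test. Luminal cells gave 0.895% and 0.826% in sham and 3.95% and 3.56% in te2 (exact permutation p = 0.333, the smallest the design allows). Both te2 shares lay above both sham shares in these 2 classes. Without thinning, 10.9% and 13.0% of sham and 51.7% and 48.5% of te2 proximal cells, and 1.89% and 2.32% of sham and 15.3% and 18.1% of te2 luminal cells, held both. In fibroblasts 0.786% to 2.24% held both at 1000 UMIs. The luminal set was in 9.38% to 20.2% of fibroblasts and in 72.8% to 86.8% of luminal cells. The fibroblast share of both sets is therefore no background for luminal cells. Krt15 with the luminal set was in 3.87% and 3.39% of te2 luminal cells, where the Krt15 share is not read as expression.

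Krt15 carried most of the co-detection in proximal cells and in te2 luminal cells, but not clearly so in sham luminal cells. With Krt15 taken out of the basal set, a choice made after seeing the data, 0.396% and 0.352% of sham and 0.314% and 0.202% of te2 luminal cells held both sets. At most 1.06% of proximal cells of any library did so, and basal cells stood at 43.9% and 52.3% in sham and 48.4% and 51.7% in te2. Krt15 with the luminal set was found in 25.3% and 20.9% of te2 proximal cells. The product of the separate shares, the level if the sets fell into cells independently of each other, was 25.4% and 21.1%. Because the luminal set was in 91.8% and 91.1% of these cells, the share and the product must lie close. Their likeness does not show independence. Krt7 with Krt15 was found in 0.614% and 2.97% of sham and 11.3% and 8.72% of te2 proximal cells.

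**Figure D5:**
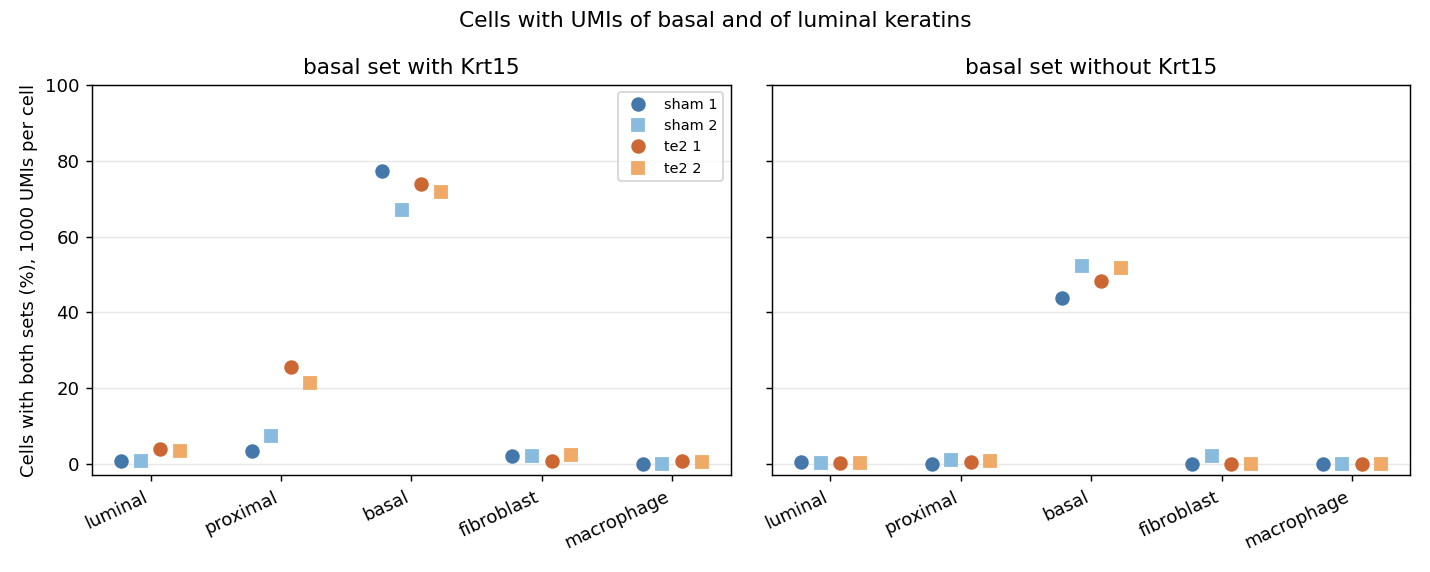
Share of cells with UMIs of both the basal and the luminal keratin set at 1000 UMIs per cell, in 5 classes, with 1 point per library (n = 2 animals per group), with Krt15 in the basal set (left) and without it (right). Proximal te2 cells lie at 25.6% and 21.3% with Krt15 and at 0.468% and 0.786% without it.

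The other genes of the keratin network were given by 3 fixed lists. Of 20 genes of desmosomes, hemidesmosomes and cytolinkers, which anchor keratin filaments, 15 were tested in luminal cells. There 5 fell with 0 rising (Dst, Dsg2, Jup, Eppk1 and Pkp4). The share called was near the 32.1% of all tested genes called in either direction, of which 14.1% were called lower and 18% higher. The list's median log2 change was -0.20 beside -0.01 over all tested genes. Dst, which encodes a linker of filaments to hemidesmosomes, fell by 0.84 ± 0.14 on the log2 scale (SE, edgeR adjusted p = 0.000428), and Dsg2, a desmosomal cadherin, fell by 0.82 ± 0.16 (SE, edgeR adjusted p = 0.00178). In basal cells 3 of 16 fell and 0 rose (Plec, Dst and Perp, median -0.26 beside 0.09). There 7.71% of all tested genes were called, 2.77% lower and 4.94% higher. Plec, the cytolinker plectin, fell by 0.90 ± 0.25 (SE, edgeR adjusted p = 0.0148). In proximal cells 2 of 15 fell and 0 rose (Pkp4 and Itgb4, median -0.28 beside 0.04). There 9.93% of all tested genes were called, 4.81% lower and 5.12% higher. Itgb4, the hemidesmosomal integrin chain, fell by 1.14 ± 0.29 (SE, edgeR adjusted p = 0.0173).

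Of 16 epithelial transcription factors, 13 were tested in luminal cells, where Ehf, Klf5 and Hoxb13 rose and Tfap2a fell (median -0.03 beside -0.01). That is 4 of 13, beside 32.1% of all tested genes. Klf5, a zinc finger factor of epithelial progenitors, had a log2 change of 1.07 ± 0.19 (SE, edgeR adjusted p = 0.000952). In basal cells Hoxb13 and Ehf rose and 0 of 13 fell, beside 7.71% of all tested genes called. In proximal cells 1 of 14 rose and 3 fell, beside 9.93%. Hoxb13, a homeobox factor of the prostate epithelium, rose by 1.15 ± 0.20 there (SE, edgeR adjusted p = 0.00104), and Sox9, Sox2 and Gata3 fell by 0.85, 1.30 and 0.60 on the log2 scale. Of 8 other filament and lamin genes, 5 were tested in luminal cells, where Synm rose and Vim fell (32.1% of all tested genes were called), and 0 of 3 in basal and 0 of 4 in proximal cells were called. In fibroblasts no gene of the 3 lists was called. In macrophages Dst and Jup fell, 2 of the 3 desmosome list genes tested there, beside 3.68% of all tested genes. Over all kept cells, where cell numbers enter and 20.7% of all tested genes were called, Itga6, Pkp1, Col17a1 and Dsc3 rose and Dst fell (5 of 19 tested), 4 transcription factors rose and 2 fell (of 15 tested, first by p Ehf, Klf5, Tfap2c and Tfap2a), and Synm rose (1 of 7 tested).

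Another 13 keratin genes were listed. Krt23 fell in proximal cells by 1.89 ± 0.50 on the log2 scale (SE, edgeR adjusted p = 0.0202), on 8 and 11 sham UMIs beside 35 and 38 from te2. Krt78 was higher in te2 over all kept cells (edgeR adjusted p = 0.0132), with 0 UMIs in both sham libraries, while te2 gave 44 and 37, of which 29 and 29 were in proximal cells. Of the 13, only 1 was tested in luminal, 2 in basal, 4 in proximal and 0 in fibroblast and macrophage cells, and 8 over all kept cells. No other tested one was called. The calls were thus 1 of 4 in proximal cells, beside 9.93% of all tested genes. Over all kept cells they were 1 of 8, beside 20.7%.

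The genes with the most similar levels over the 20 class sums (5 classes in 4 libraries) were compared by Pearson's r of log2(CPM + 1) among 3993 genes. These sums share libraries and depth, so r is a description. The top 3 were Pdgfa, Sdc1 and Ktn1 for Krt5 (r of 0.96, 0.92 and 0.87) and the top 2 were Ptma and Pdgfa for Krt14 (0.94 and 0.85) and Gemin7 and Pdgfa for Krt17 (0.91 and 0.89). The top 3 were Nxn, Hras and Rpl8 for Krt15 (0.92, 0.91 and 0.90). They were Hoxb13, Strbp and Spint2 for Krt18 (0.97, 0.96 and 0.95), Nme7, Ptprf and Aldh6a1 for Krt8 (0.94, 0.93 and 0.93) and Tnfrsf21, Eif4e2 and Prdx6 for Krt19 (0.91, 0.89 and 0.89). They were Cxcl17, Ndufb2 and Epcam for Krt4 (0.89, 0.89 and 0.88), of which Cxcl17 is in the proximal rule, and Cops6, Uqcrc2 and Rpl21 for Krt7 (0.96, 0.91 and 0.91). Krt14 and Krt5 had an r of 0.88.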

How the data were processed

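The authors deposited unnormalized UMI counts, 1 table per animal with genes in rows and cells in columns. Kallisto 0.46.1, bustools 0.39.4, R 4.3.2, Seurat 5.0.1 and build GRCm39 are named, per the submitters' processing notes, with no roles. Genes seen in fewer than 3 cells and cells under 196 to 199 genes are not in these tables. How reads shared between similar keratins or pseudogene copies were counted is not given in the sources used here, so the keratin counts carry that uncertainty.

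Counts were summed per class and library (at least 20 cells in every library) and tested with edgeR 4.0.16 (R 4.3.3), two-sided, FDR 0.05. Its p-values lean on a spread pooled over genes. The scripts were tested on simulated data. Of genes given a log2 change of size 1, 60.2% were called in luminal, 15.2% in basal and 24.1% in proximal cells. A keratin that did not pass is thus not shown to be unchanged. Cells were thinned to 1000 UMIs by the exact hypergeometric law (scipy 1.17.1). Doublets were called with scrublet in scanpy 1.11.5 (97 of 8091 cells, 1.20%), kept in the values reported and left out in an alternative. DESeq2 1.42.0, other thresholds, scalings and left-out libraries were further alternatives. Each SE was derived from the log2 change and its F statistic. All 9 members are given in every class. Of each list, up to 4 called genes of smallest p per class follow from the naming rule. Fewer have values. The fifth luminal name in the desmosome list was added to complete its count. A few genes of the lists and of the naming rule are not reported here and are not in the sums. Members, lists and tests were chosen with earlier results of these data known.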

Additional observations from a re-analysis of the deposited data

Results flagged for a closer look

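For 5 comparisons, keratin responses differed between classes by edgeR's interaction test, each library kept as a block. The log2 change of Krt7 was lower in basal than in luminal cells by -3.93 and lower in proximal than in luminal cells by -4.63. That of Krt4 was lower in proximal than in luminal cells by -2.17 and than in basal cells by -2.73. That of Krt18 was lower in proximal than in basal cells by -0.83. In luminal cells the sham Krt7 level rested on 15 UMIs per library and was at background, and Krt4 had 14 to 52. The size of the differences from luminal cells is therefore uncertain. With 2 libraries per group, no group was large enough to look for a library that stands apart.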

How the results depend on the processing

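With 2 animals per group, every call here rests on few samples. Of 441 results for single keratins under an alternative, 372 kept direction and call, 45 lost the call, 14 gained one and 10 turned direction. The count of keratins called in basal cells (4) was 2 with DESeq2 and with sums thinned to equal totals, and 1 to 3 with a library left out. It was 3 in proximal cells, 5 with no filter on low counts and 0 to 3 with a library left out. Over all kept cells (6) it was 3 to 8 and in luminal cells (6) 4 to 6 with a library left out. In fibroblasts (0) it was 1 with basal cells at 1%, and in macrophages (0) it was 0 to 1 with a library left out. The number of keratins whose response differed was 0 to 1 (basal minus luminal, 1), 0 to 1 (proximal minus basal, 2) and 2 to 2 (proximal minus luminal, 2) with a library left out. For proximal minus basal it was 1 without called doublets and 0 with basal cells taken by Krt5 and Krt14 alone, a rule added after seeing the data. No cause was tested.

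Krt17 in basal cells, uncalled, turned to 0.035 with DESeq2, 0.040 with no filter, 0.072 with a replicate block, and was -0.51 to 1.92 with a library left out. In fibroblasts, uncalled, Krt8 turned to 0.38 with basal cells taken by Krt5 and Krt14 alone, and Krt18 to -1.3e-05 with basal cells at 3 UMIs or more, -0.23 without doublets, -0.071 with thinned sums, and was -0.37 to 0.97 with a library left out. The difference in co-detection (percentage points) in luminal cells turned to -0.064 with Krt5 or Krt14 and Krt8 or Krt18, and to -0.116 without Krt15. In basal cells (0.677) it was -4.53 to 5.88 with a library left out.

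Replicate numbers did not pair the animals (correlation of deviations -0.051 to 0.017). With a replicate block the keratins called were 6 in luminal, 3 in basal, 3 in proximal and 5 in all kept cells. Without TMM factors the median of all genes over all kept cells moved from -0.01 to 0.25, with 3436 genes higher and 695 lower against 1690 and 1209, and in fibroblasts 52 and 49 against 34 and 58. Basal cells at 1% in the basal class, and cells with at least 1000 UMIs in basal cells and macrophages, left too few sham cells and were not run. A proximal threshold of 0.3% left 13 proximal cells in sham 1 and was not run either. The proximal calls were thus not checked at another proximal threshold.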
